A study of Cicer arietinum with 8 samples.

Results

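A group of 63 annotated chickpea gene models stood higher in the desiccated and in the salt-stressed shoot than in the unstressed shoot. In the root and in the cold shoot their changes against the controls stayed under the limits given below. The group makes up 63 of 27248 annotated gene models among 34193 loci. The members were selected on the measured changes themselves. A change is the difference of log2(FPKM + 1) between a stressed library and the control library of the same tissue, where FPKM is the number of fragments divided by exon length and by the size of the library. A member was at least 2.38-fold higher on the FPKM + 1 scale in shoot under desiccation and under salinity, and had an absolute log2 change under 0.5 in shoot under cold. In root its absolute change was under 1 under each of the stresses, and at least 1 root library reached 1 FPKM.

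RNA was sequenced from root and shoot of chickpea (Cicer arietinum) seedlings of the genotype ICC4958, a line known for drought tolerance, at an age of 10 days. All groups share this genotype and age and differ in tissue and treatment. The treatments lasted 5 h: control in water, desiccation on folded tissue paper, salinity in 150 mM NaCl, and a cold treatment with the water held at 4 ± 1 °C. There are 8 libraries, 1 for each tissue and treatment, so no difference here could be set against a spread between replicates, and no test was made. The sources do not say how many plants went into a library, and in such whole-tissue RNA fewer cells of a type and less RNA per cell cannot be told apart.

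Drying and salt both lower the water potential around a plant, and salt in addition brings sodium and chloride ions into it. Plants answer such water deficit in large part through the hormone abscisic acid, which is made in leaves and roots and which closes stomata and switches on protective genes. Shoot and root are known to share part of this response and to differ in another part, since the shoot loses water by transpiration and the root meets the dry or saline medium. Cold acts partly through other regulators. Of 27571 gene IDs in the files, 0 matched the reference gene table, so the members carry no gene names or functions here and are described by ID, level and pattern. For the same reason the tissue labels could not be set against marker genes. Over all annotated gene models, Spearman's rho lay between 0.950 and 0.988 for pairs of libraries of the same tissue and between 0.857 and 0.891 for pairs across tissues.

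Between 19991 and 20488 loci reached 1 FPKM in a library. Sequencing depth, judged by the spacing of the lowest values, was 1.21 to 1.31 times that of the root control in the other libraries. Among weakly expressed loci 1 FPKM corresponded to about 24.9 fragments (median, root control), a number that grows with the length of the locus. Values near 1 FPKM therefore carry a large counting error. Of the members, 38 had at least 5 FPKM in all 8 libraries, and 23 had at least 10 FPKM in all. No member was listed at 0 in any library (0 of 63).

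The shoot conditions alone were met by 188 gene models. In shoot 1023 gene models were at least 2.38-fold higher under desiccation, 470 of these were so under salinity as well, and 188 of those were within 0.5 of the control under cold. Many of the 188 were not steady in root. Under salinity 79 of them were at least 1 (2-fold) higher in root and 11 at least 1 lower, under desiccation 32 were higher and 22 lower, and under cold 17 were higher and 27 lower. At least 1 of these root changes was present in 113, and 12 more had under 1 FPKM in every root library, which left the 63. Over all gene models that reached 1 FPKM in either library compared, the share at least 2.38-fold higher was 6.38% in shoot desiccation and 4.29% in shoot salinity. The share within 0.5 was 86.7% in shoot cold. The share within 1 in root was 83.6% under desiccation, 73.3% under salinity and 83.6% under cold. All 63 meet each of these conditions by the way they were chosen, so nothing is read from their own counts there.

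The members span a wide range of levels. Their median in the unstressed shoot was 8.84 FPKM, with a lowest value of 0.176 and a highest of 77.2 FPKM. The median of all 27248 annotated gene models, at any level, was 3.12 FPKM. Only 16475 of these reached 1 FPKM in a root library, as the rule asks of members, so these medians are not like for like. In desiccated shoot the members' median was 33.4 FPKM, in salt-stressed shoot 26.2 FPKM and in cold shoot 10.1 FPKM. In root the median was 15.02 FPKM in the control, 15.97 FPKM under desiccation, 18.8 FPKM under salinity and 15.9 FPKM under cold. Summed over the members, the shoot held 828 FPKM in the control, 4444 under desiccation, 2872 under salinity and 1035 under cold. The corresponding root sums were 2569, 2314, 3074 and 2361 FPKM. As a share of the FPKM of all annotated gene models, the members made up 0.127% in the shoot control and 0.625% in the desiccated shoot. A few abundant members weigh heavily in these sums, and 5 members supplied 45.3% of the summed gain under desiccation.

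**Figure D1:**
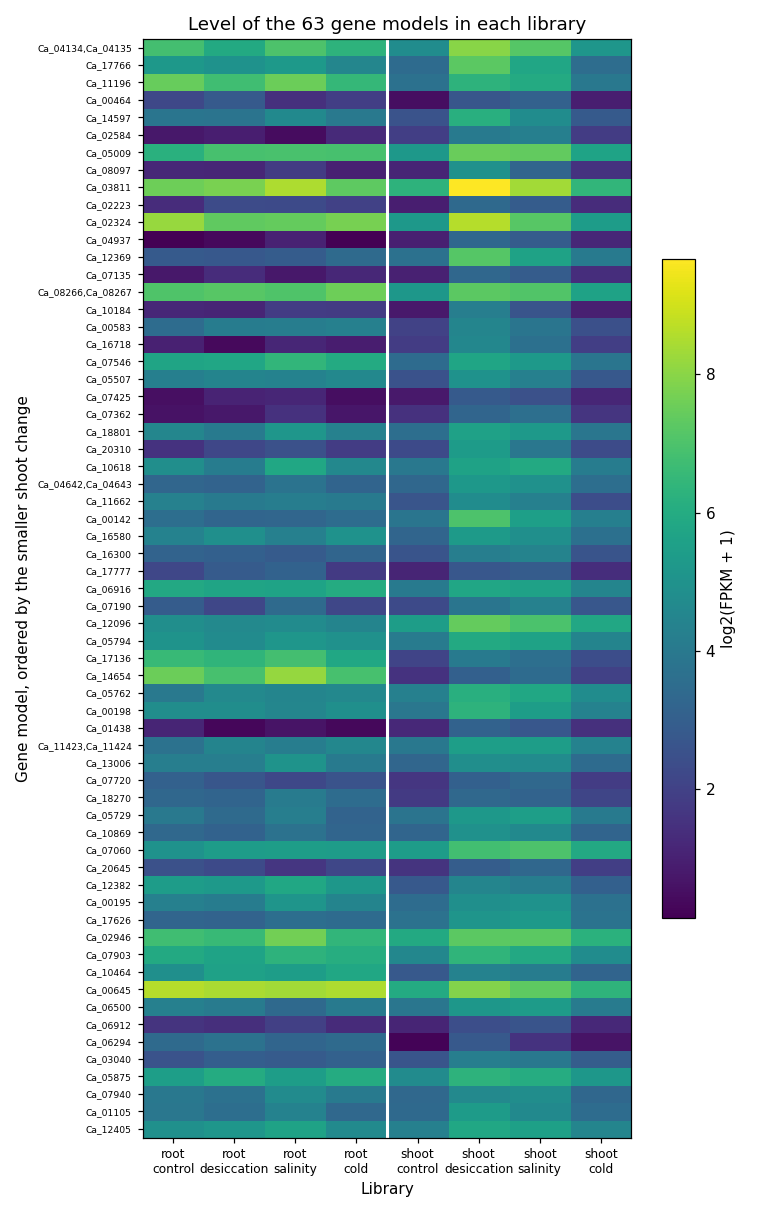
Level of each of the 63 gene models, as log2(FPKM + 1), in the 4 root libraries (left of the white line) and the 4 shoot libraries (right), 1 library per column. Rows are ordered by the smaller of the shoot changes under desiccation and salinity, and in shoot the desiccation and salinity columns are brighter than control and cold, which is how the rows were chosen.

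The following 6 members had the largest shoot change common to desiccation and salinity, ranked by the smaller of the 2 changes. The locus Ca_04134,Ca_04135, where 2 annotated IDs stand together so that reads of both are counted as 1, stood at 26.6 FPKM in the shoot control, 251 under desiccation, 141 under salinity and 34.6 under cold. In root it stood at 111, 59.4, 129 and 77.8 FPKM in the same order. Its unstressed shoot thus lay below every root library, and its desiccated shoot above all of them. The shoot changes were 3.19 under desiccation and 2.36 under salinity on the log2(FPKM + 1) scale.

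Ca_17766 stood at 10.2 FPKM in the shoot control, 153 under desiccation, 54.4 under salinity and 10.6 under cold. In root it stood at 36.3 FPKM in the control and at 31.1, 37.7 and 21.7 FPKM under desiccation, salinity and cold. Control and cold shoot were nearly equal for this gene model (a change of 0.06 under cold), and both were below every root library. Its shoot change was 3.78 under desiccation and 2.31 under salinity. Ca_14597 had a similar course, with 5.04 FPKM in the shoot control, 69.9 under desiccation, 26.2 under salinity and 6.17 under cold. Its root values were 13.5, 13.0, 24.1 and 14.9 FPKM. Both gene models were higher in desiccated than in salt-stressed shoot, Ca_17766 by 1.47 and Ca_14597 by 1.38.

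Ca_11196 differed from these in remaining higher in root. It stood at 11.8 FPKM in the shoot control, 77.9 under desiccation, 61.8 under salinity and 14.5 under cold, against 173, 108, 183 and 88.8 FPKM in root. Even the desiccated shoot lay under the lowest root library. The remaining 2 of the 6 stood under 7 FPKM in every root library. Ca_00464 stood at 0.414 FPKM in the shoot control, 5.49 under desiccation, 7.50 under salinity and 0.898 under cold, with 3.62, 6.13, 1.76 and 2.74 FPKM in root. Ca_02584 had shoot values of 2.80, 15.9, 18.0 and 2.57 FPKM and root values of 0.691, 0.925, 0.356 and 1.42 FPKM, so that every shoot library lay above every root library. In both of these the salt-stressed shoot was the highest of the 8 libraries.

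**Figure D2:**
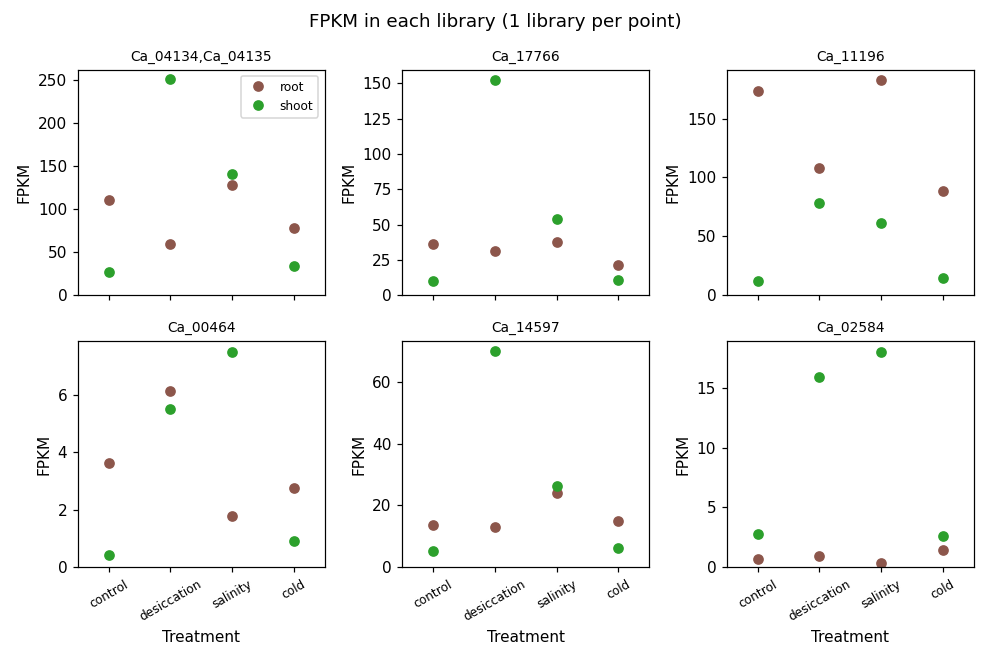
FPKM (linear axis from 0) by treatment in root and shoot for the 6 gene models with the largest shoot change common to desiccation and salinity, 1 library per point and no error bars. In each panel the shoot points under desiccation and salinity lie above those under control and cold, while Ca_11196 stays higher in root throughout.

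Desiccation and salinity were not equal in size. In shoot the median change of the members was 1.95 under desiccation (quartiles 1.56 and 2.41, highest 3.82) and 1.67 under salinity (quartiles 1.48 and 1.93, highest 2.59). As plain FPKM ratios the medians were 4.29-fold and 3.74-fold. Both changes use the same shoot control library, so the stressed libraries were also set against each other directly. Desiccated shoot was higher than salt-stressed shoot in 45 of the 63, by a median of 0.31, where 47.3% of all gene models were higher and their median was -0.03. At least 1 higher under desiccation were 10 members, against 2.94% of all gene models, and at least 1 higher under salinity were 0, against 4.14%. These are the same values on which the members were chosen. Desiccation passed the shoot threshold at more gene models than salinity did (1023 against 689), so gene models past a common threshold can lean to desiccation by that choice alone, and nothing particular to the members is read from these counts. The 125 other gene models that meet the shoot conditions without meeting the root conditions had a median difference of 0.39, with 94 higher under desiccation.

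The gene models with the largest excess of desiccation were Ca_08097, Ca_10184 and Ca_12369. Ca_08097 stood at 1.21 FPKM in the shoot control, 30.2 under desiccation, 8.62 under salinity and 1.87 under cold, and at 1.31, 1.22, 2.50 and 1.01 FPKM in root. Its desiccated shoot was 1.70 above its salt-stressed shoot. Ca_10184 stood at 0.713, 17.4, 5.19 and 0.992 FPKM in shoot, and its root values were 1.29, 1.16, 2.57 and 2.44 FPKM. Both of these have control values near 1 FPKM, where the counting error is large. Their own fragment numbers were not determined. Ca_12369 is better covered, with 12.0 FPKM in the shoot control, 140 under desiccation, 48.8 under salinity and 15.6 under cold, and 6.25, 5.76, 6.49 and 9.79 FPKM in root. It was highest in desiccated shoot, and every shoot library lay above every root library.

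At the other end, the largest excess of salinity over desiccation was small. Ca_07190 stood at 3.92 FPKM in the shoot control, 13.4 under desiccation, 19.2 under salinity and 5.59 under cold, a difference of -0.49 between desiccation and salinity. In Ca_14654 that difference was -0.40 and in Ca_07362 -0.39. Ca_14654 is also the member with the widest gap between the tissues. Its root values were 182, 117, 284 and 118 FPKM under control, desiccation, salinity and cold, and its shoot values 1.90, 7.38, 10.1 and 2.95 FPKM. Its shoot change of 1.53 under desiccation and 1.93 under salinity thus took place far below the root level. Ca_07362 stood at 1.85, 8.48, 11.5 and 2.08 FPKM in shoot, and under 2 FPKM in every root library.

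**Figure D3:**
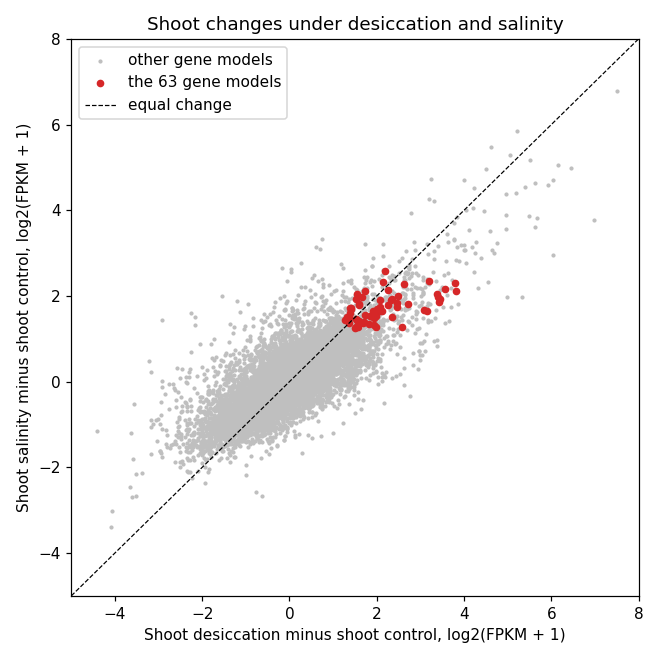
Change in shoot under desiccation (horizontal) and under salinity (vertical), both as log2(FPKM + 1) against the same shoot control library, for the 63 gene models (red) and all others with at least 1 FPKM in a library compared (grey). The red points begin at the 2.38-fold threshold on both axes by selection, and 45 of 63 lie below the line of equal change.

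Cold was bounded by the rule to a change under 0.5 in either direction, but the members were not spread evenly within that band. In shoot 59 of 63 were above the control under cold and 4 below, where 47.7% of all gene models were above it. The median change was 0.29 (quartiles 0.18 and 0.40), against -0.02 for all gene models, and as a plain ratio the members' median was 1.29-fold. At least 0.4 higher were 17 members, close to the limit. The cold, desiccation and salinity changes all use the 1 shoot control library, and members were chosen for standing high against that library, so the cold values are not independent of that choice. The part of the control library in them was not tested. The other 125 gene models that meet the shoot conditions had a median of 0.26 and 103 above the control.

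**Figure D4:**
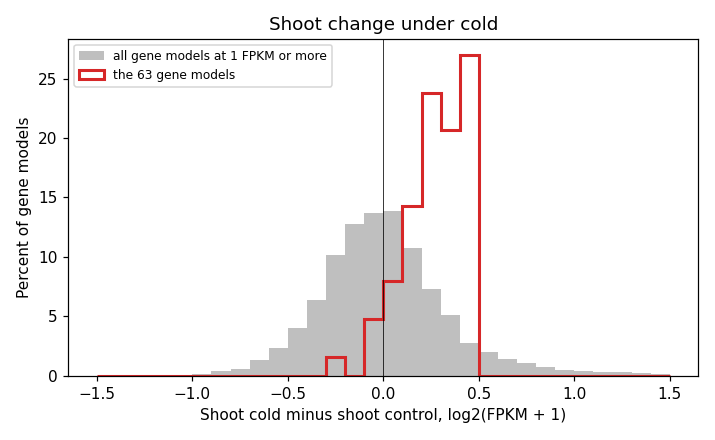
Distribution of the shoot change under cold, as log2(FPKM + 1) against the shoot control, in percent of the 63 gene models (red outline) and of all gene models with at least 1 FPKM in either library (grey). The members lie within 0.5 of 0 by selection, and 59 of 63 lie above 0.

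In unstressed plants most members were more abundant in root than in shoot. The shoot control was below the root control in 46 of 63, with a median difference of -0.83 (quartiles -1.61 and 0.07), where the median of all gene models was 0.02. At least 1 below the root were 24 members, against 19.5% of all gene models, and at least 1 above it was 1 member (Ca_02584), against 19.5%. In 40 members the shoot control was below every root library, and in 8 it was above every one. The same shares over all gene models were not computed, so nothing is read from these counts. The rule does not compare the control libraries with each other. It does favour gene models with a low shoot control value, since the members were chosen for standing above it, and it asks for 1 FPKM in root. Among gene models with the same shoot conditions, 25 were also at least 1 higher in root under both desiccation and salinity. Their median control difference was 0.21. The 125 outside the group, which include these 25, had -0.43. The 25 were chosen for standing above their root control, which favours a low value there. Their difference is thus not independent of that choice. The ranking by level was partly common to the tissues, with a Spearman's rho of 0.761 between shoot control and root control across the 63 members.

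Under desiccation the order of the tissues was turned. The shoot was above the root in 53 of 63 members, by a median of 1.16. Of all gene models 46.3% were above, with a median of -0.10. At least 1 above the root were 36 members, against 18.5% of all gene models. At least 1 below the root were 3, against 21.1%. The 125 other gene models that meet the shoot conditions had 93 above the root, with a median of 1.02. Under salinity the shoot was above the root in 43 of 63 members, beside 49.4% of all gene models, and the members' median difference was 0.56. At least 1 above the root were 24 members (18.5% of all gene models), and 8 were at least 1 below (20.0%). The 125 others had 57 above the root, with a median of -0.12. Of these, 79 were at least 1 higher in salt-stressed root, which set them outside the group, so their values are not independent of that. Under cold the members' median difference was -0.54. Since the rule fixes a rise in shoot and little change in root, the shift between treatments follows from the choice of members, and only the level at which it took place is a description of them. Of the 24 members at least 1 below the root in the control, 16 were within 1 of the root under desiccation, 5 at least 1 above it and 3 still at least 1 below. Under salinity the numbers were 14, 2 and 8. The highest of the 8 libraries was desiccated shoot in 34 members, salt-stressed shoot in 14 and salt-stressed root in 10. The rule itself favours the stressed shoot here. The same shares over all gene models were not computed, so these counts are given as a description only.

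**Figure D5:**
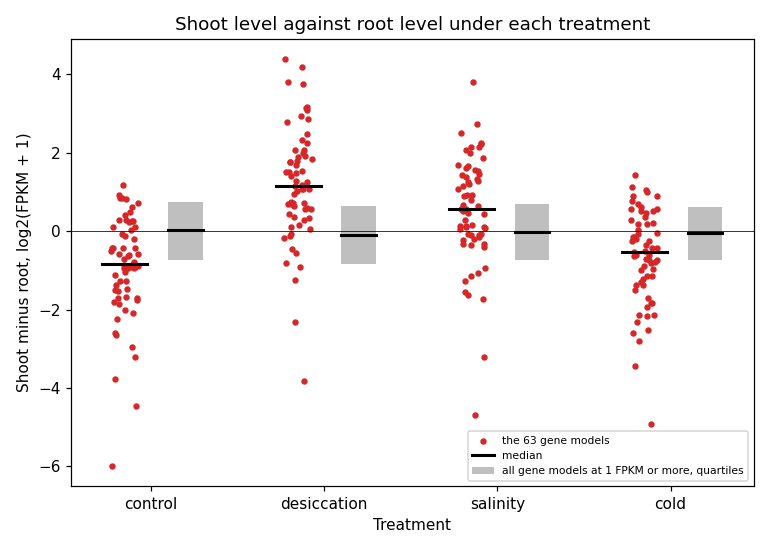
Shoot minus root difference of log2(FPKM + 1) within each treatment for the 63 gene models (red points, black line at the median) and for all gene models with at least 1 FPKM in either library (grey bar from the lower to the upper quartile, black line at the median). The members' median goes from -0.83 in the control to 1.16 under desiccation and 0.56 under salinity, and is -0.54 under cold.

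The most abundant members differed among themselves in how their tissues compared. Ca_00645 had the highest root level, at 389, 352, 324 and 357 FPKM under control, desiccation, salinity and cold, and stood at 61.7, 241, 155 and 79.4 FPKM in shoot. All of its shoot libraries were below all of its root libraries. Ca_03811 stood at 77.2 FPKM in the shoot control, the highest of the members there, and at 814 under desiccation, 324 under salinity and 84.6 under cold. Its root values were 187, 218, 361 and 157 FPKM, with the salt-stressed root highest, a change of 0.95 that lies just under the limit of 1.

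Ca_02324 stood at 36.5 FPKM in the shoot control, 394 under desiccation, 147 under salinity and 41.0 under cold, and at 290, 162, 168 and 210 FPKM in root. It was lower than the control in all stressed root libraries, with changes of -0.83, -0.79 and -0.47, while in shoot its change was 3.40 under desiccation and 1.98 under salinity. Ca_02946 changed alike under both stresses, at 59.7, 154, 155 and 74.9 FPKM in shoot, and stood at 107, 93.1, 199 and 83.6 FPKM in root. Ca_12096 was among the 17 members with more in shoot than in root in the controls. It stood at 42.6, 170, 126 and 57.1 FPKM in shoot, and its root values ran only from 20.6 to 27.6 FPKM.

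In root the members' changes are small by selection. Their median root change was 0.37 under salinity, -0.10 under desiccation and -0.06 under cold, where all gene models had 0.01, 0.06 and 0.02. Above the root control were 46 of 63 under salinity, against 50.4% of all gene models. The 125 other gene models that meet the shoot conditions had 100 above, with a median of 1.31. Of these, 113 are outside the group because they broke the root limit. In 79 of them salt-stressed root was at least 1 higher than the control. Their values thus cannot show whether the lean upward in salt-stressed root is particular to the members. The largest of a member's root changes was that under salinity in 35, under cold in 16 and under desiccation in 12. Over the 16475 gene models with at least 1 FPKM in a root library, salinity gave the largest root change in 54.1%, cold in 24.4% and desiccation in 21.5%, so salinity also led in root at large. Of the 63 members 17 stayed within 0.5 in all stressed root libraries, beside 26.4% of all gene models. The members are held to root changes under 1 by the rule and all gene models are not. The 17 and the 26.4% are therefore not like for like, and the share among gene models under the same limit was not computed. In 15 all stressed root libraries were above the root control and in 9 all were below, beside 28.7% and 24.7%.

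The members closest to the root limit of 1 were Ca_10618, Ca_02223 and Ca_17777. Ca_10618 had 28.04 FPKM in the root control, 16.5 under desiccation, 56.1 under salinity and 23.1 under cold, so that its salt-stressed root was highest and its desiccated root lowest. In shoot it stood at 14.6, 48.3, 60.4 and 16.8 FPKM. For this gene model salinity was accompanied by higher values in both tissues. Ca_02223 had root values of 1.56, 4.03, 3.82 and 2.94 FPKM and shoot values of 0.899, 9.67, 6.55 and 1.54 FPKM. For Ca_17777 the root values were 3.498, 6.42, 7.81 and 2.41 FPKM, and the shoot values 1.17, 5.58, 6.48 and 1.65 FPKM. Its stressed shoot did not exceed its stressed root under either desiccation or salinity.

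The added 1 in log2(FPKM + 1) compresses changes of weakly expressed gene models, so a plain ratio in root can be larger than the limit implies. In 14 of the 63 at least 1 stressed root library was 2-fold or more from the root control as a plain FPKM ratio, higher in 9 and lower in 5. Only 4 of these 14 reached 5 FPKM in root. Examples in both directions, picked after their values were seen, are Ca_04937 and Ca_01438. Ca_04937 had 0.103 FPKM in the root control and 1.06 in salt-stressed root. Ca_01438 had 1.18 FPKM in the root control and 0.236 in desiccated root. Both were under 2 FPKM in every root library, so for them the limit in root was met at low levels.

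The shoot threshold of 2.38-fold cuts through a continuous range. Just inside it, by the smaller shoot change, were Ca_12405, Ca_01105 and Ca_07940. Ca_12405 stood at 18.7, 54.9, 45.9 and 21.1 FPKM in shoot under control, desiccation, salinity and cold. Ca_01105 stood at 9.57, 40.6, 24.4 and 10.5 FPKM, and Ca_07940 at 9.29, 23.8, 27.1 and 8.99 FPKM. Just outside, with all other conditions met, were Ca_10570 with a smaller change of 1.249, Ca_04410 with 1.245 and Ca_19283 with 1.243. Ca_19283 stood at 7.58, 19.7, 19.3 and 10.4 FPKM in shoot. In all 86 gene models outside the group, these 3 included, met the other conditions with a smaller shoot change from 1 up to the threshold. Of the members, 25 had a smaller shoot change under 1.5 and 9 had one of at least 2.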

How the data were processed

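RNA-seq values came from 8 libraries, 1 per tissue and treatment, grouped by sample title. Each library has 1 deposited table of FPKM. Per the labels' series design text, NGS QC Toolkit was used by the authors to filter reads, TopHat to map them and Cufflinks to compute FPKM. No tool version, genome build or annotation is given in the sources used here. FPKM depends on each library's total, so very abundant loci lower the other values. Rescaling by median ratios needed factors of 0.981 to 1.04.

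Members and lists were chosen with earlier results of these data known. Relative depth came from single-fragment steps among values under 0.3 FPKM. After scaling, 74.6% of 421 low loci were whole multiples of 1 step within 5% in every library. This was examined only at low values, so reads were not reconstructed and count tests were not used. Background shares are over annotated gene models with at least 1 FPKM in either library compared. No p-value was computed. Named members are the extremes by shoot change, level, difference of stresses and root change, and those nearest the threshold. The selection code was run on simulated data, where 200 of 200 planted loci were found among 34193. These loci were well expressed in both controls and raised well past the threshold. The simulated libraries were made from the controls with little noise. The run therefore checks the code only, and cannot show how firm membership is at low levels or near the limits. Python 3.11.15, numpy 2.4.6, pandas 2.3.3 and matplotlib 3.10.9 were used.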

Additional observations from a re-analysis of the deposited data

Results flagged for a closer look

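In part of the members root values lay below their control while shoot values lay above theirs. This difference rests on 1 library per tissue and treatment and was not tested. All 63 were higher in shoot under desiccation and salinity by selection, so only their root direction could vary. In desiccated root 37 were below the control, beside 44.9% of all gene models, and in salt-stressed root 17, beside 49.6%. Of the 125 other gene models that meet the shoot conditions, 46 were below in desiccated root and 24 in salt-stressed root. Under cold 32 members were below the control in root and above it in shoot, beside 23.0% of all gene models, with the shoot cold changes subject to the shared shoot control. The members' root changes are under 1 on the log2(FPKM + 1) scale by selection. Their medians were -0.10 under desiccation, 0.37 under salinity and -0.06 under cold, and any value below 0 was counted. All gene models are not held to that limit, and 113 of the 125 are outside the group for breaking it. The counts are therefore not like for like, and nothing is read from them.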

How the results depend on the processing

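All alternatives named here were planned. The number of members moved most with the limits of the rule: 149 with a shoot change of at least 1, 9 with at least 2, 17 with root changes under 0.5, and 121 with a shoot cold change under 1. It stayed within 1.5 times of 63 under the other 8 settings of 12, but not always with the same gene models. A pseudocount of 0.1 gave 72, of which 46 were shared, and a pseudocount of 5 gave 61, of which 26 were shared. Median-ratio scaling gave 67 with 60 shared, and quantile normalization 57 with 53 shared. Under both pseudocounts and both scalings 18 members were kept. Of the 23 members named by the rule on extremes 6 are among them (Ca_17766, Ca_14597, Ca_02584, Ca_12369, Ca_00645 and Ca_12096) and 17 are not. Ca_04134,Ca_04135, Ca_03811, Ca_02324, Ca_02946 and Ca_10618 were lost under quantile normalization alone, and Ca_11196 under both scalings. Ca_00464, Ca_02223, Ca_07190, Ca_07362, Ca_08097 and Ca_17777 were lost under both pseudocounts, Ca_10184, Ca_01105 and Ca_07940 under a pseudocount of 5 alone, Ca_12405 under a pseudocount of 5 and quantile normalization, and Ca_14654 under both pseudocounts and quantile normalization. Including loci without a gene ID added 18. The median difference of desiccated and salt-stressed shoot ran from 0.27 to 0.32, and that of shoot control and root control from -0.94 to -0.62, over their 5 alternatives each. No paired analysis was possible because each group holds 1 library. Depth limits the values near 1 FPKM, and 13 of the 63 members stayed under 5 FPKM in every root library.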

Other observations

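Of the 63 members 4 are loci on which several annotated IDs stand together, and no 2 separate members (0 pairs) carry consecutive ID numbers. The member Ca_06912 has an ID next in number to Ca_06911, a gene model outside the group that was picked after its values were seen. Ca_06911 stood at 59.95 FPKM in the shoot control, 1527 under desiccation, 509 under salinity and 143 under cold, and at 0.535, 48.6, 16.2 and 3.08 FPKM in root. Ca_06912 stood at 1.19, 4.43, 5.16 and 1.37 FPKM in shoot and at 1.98, 1.69, 2.85 and 1.49 FPKM in root. The files give no positions, so whether these loci adjoin was not tested.

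Parts of the gene models with the same shoot conditions are described here by root behaviour, and they do not make up the whole. The 25 that were also at least 1 higher in root under desiccation and salinity had median root changes of 1.72 and 2.53, and 0.78 under cold. Their median shoot changes were 2.22 under desiccation and 1.57 under salinity. The 12 with under 1 FPKM in every root library had median shoot changes of 2.003 and 1.48. The median cold change in shoot was 0.27 in the 25 and 0.29 in the 12, beside 0.29 in the 63 members.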
